A study of Mus musculus with 6 samples.

Results

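A group of 10 genes encodes many of the glycoproteins and proteoglycans that stand beside type IV collagen in a muscle basement membrane: laminin chains Lama2, Lama4, Lama5, Lamb1, Lamb2 and Lamc1, nidogens Nid1 and Nid2, and the heparan sulfate proteoglycans perlecan (Hspg2) and agrin (Agrn). They were taken by gene symbol from a table of 18124 genes, all 10 were listed, and all 10 were among the 14644 genes with enough counts to test. RNA came from mesenchymal stem cells of quadriceps muscle of naive male Col1-GFP mice (6 animals), sorted for collagen 1-driven green fluorescence and surface Sca-1, grown to passage 4 and then held for 72 hours in medium from bone marrow-derived macrophages of wild-type mice, renewed each day. Bone marrow cells had become macrophages over 7 days with the growth factor M-CSF at 10 ng/mL, and their medium was collected after 48 hours, pooled over repeat collections and frozen before use. In one group (control medium, 3 libraries) the macrophages were untreated. In the other (senescent medium, 3 libraries) they had received 300 µM hydrogen peroxide for 3 hours, the same again 3 days later, and 14 further days of culture. All 6 libraries therefore share the reporter genotype, the sort, the passage and exposure to macrophage products, and no library comes from cells without macrophage medium. The labels do not tell whether libraries within a group differ in animals, cell isolates or medium batches, and p-values then reflect only library-to-library spread, possibly technical. Nor do they say how long the control macrophages were cultured.

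A basement membrane is a thin sheet of matrix around each muscle fibre, nerve and vessel. Laminins are trimers of 1 alpha, 1 beta and 1 gamma chain that self-assemble on the cell surface into the first network. Nidogens bind the laminin gamma-1 chain and type IV collagen, and perlecan adds a further link between the networks and carries heparan sulfate chains that hold growth factors. In muscle the alpha-2 chain is the main alpha chain around fibres, where it binds dystroglycan and integrins, and loss of Lama2 causes a congenital muscular dystrophy. Stromal cells of muscle are a known source of several of these proteins.

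Upstream sequences of a few genes show how unlike their starts are, although most of them moved the same way in the counts described next. RefSeq starts on build GRCm38.p6 were matched by symbol for 7 of the 10 genes, and the 250 bases before each start were searched on both strands. Shown are the beta chain pair, of which Lamb1 was higher and Lamb2 was not, and Agrn and Lama2, which had 2 of the 4 largest rises. Each stretch runs 5′ to 3′ on the gene's strand and stops before any annotated exon base. For Lama2 and Agrn that is the whole 250-base window, up to the base before the start. For Lamb1 the first 191 and for Lamb2 the first 124 bases of the window are shown, so that the printed end is not the start, and the rest of those windows was searched but is not printed. Capitals mark a match to a motif named below.
Lamb1, chr12:31265043-31265233, plus strand: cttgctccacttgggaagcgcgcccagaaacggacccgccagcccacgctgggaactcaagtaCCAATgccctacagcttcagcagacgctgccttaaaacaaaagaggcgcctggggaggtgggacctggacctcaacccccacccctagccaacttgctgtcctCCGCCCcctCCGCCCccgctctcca
Lamb2, chr9:108479612-108479735, plus strand: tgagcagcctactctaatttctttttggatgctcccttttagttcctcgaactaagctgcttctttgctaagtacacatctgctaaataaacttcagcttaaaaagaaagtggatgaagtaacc
Lama2, chr10:27616943-27617192, minus strand: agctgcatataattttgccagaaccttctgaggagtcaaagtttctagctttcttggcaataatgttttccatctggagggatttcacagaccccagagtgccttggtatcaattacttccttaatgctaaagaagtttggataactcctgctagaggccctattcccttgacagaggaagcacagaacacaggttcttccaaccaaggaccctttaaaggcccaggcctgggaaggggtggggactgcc
Agrn, chr4:156197489-156197738, minus strand: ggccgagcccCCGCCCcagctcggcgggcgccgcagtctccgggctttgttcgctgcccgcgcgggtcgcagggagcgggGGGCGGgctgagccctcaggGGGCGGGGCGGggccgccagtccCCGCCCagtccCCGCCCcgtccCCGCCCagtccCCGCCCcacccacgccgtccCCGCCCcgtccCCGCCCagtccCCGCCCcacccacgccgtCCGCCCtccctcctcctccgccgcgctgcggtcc

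The full 250-base windows differed in base composition: 43.6% G and C for Lamb2, 47.2% for Lama2, 62.0% for Lamb1 and 83.6% for this start of Agrn, where the median over all 32851 listed promoters was 52.4%. The motifs searched were the TATA box (TATAAA), the CCAAT box (CCAAT), the GC box (GGGCGG), and cores read by AP-1 (TGANTCA), by ATF4 with C/EBP (TGATGNAA), by hypoxia-inducible factor (ACGTG) and by interferon regulatory factors (GAAANNGAA). The Agrn window shown held 12 GC boxes, some of them overlapping, and the Lamb1 window held 2, with 1 CCAAT box. Another listed start of Agrn, not shown, had a window of 60.8% G and C with 2 GC boxes, near the values of Lamb1. Neither Lamb2 nor Lama2 had a match to any of the 7 motifs. Of all promoters, 32.7% held a GC box, 33.8% a CCAAT box and 3.5% the ATF4 core, and no window of the 7 matched genes held the TATA box or the AP-1, ATF4, hypoxia or interferon core. A match is a description of letters, not a site, and the absence of one says only that those letters are not in the window.

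The libraries held 17228162 to 21659434 estimated counts, and the 10 genes had between 189 (Lama5) and 48778 (Nid1) counts in a library. Levels are given as CPM, the usual counts scaled to library size, here after TMM scaling, which aligns libraries on the bulk of their genes. Log2 fold changes are senescent over control medium with their standard error (SE), and calls rest on an adjusted p below 0.05 from edgeR's quasi-likelihood test, two-sided, with Benjamini-Hochberg adjustment over all tested genes. Of the sorted cells' own markers, Ly6a, the gene of Sca-1, stood at 1206 ± 44.7 CPM in control and 1235 ± 46.8 CPM in senescent medium and was not called, and the collagen gene Col1a1 rose from 5361 ± 69.8 to 7516 ± 229 CPM. Among all 7 tested mesenchymal stromal markers 5 rose and 1 fell, against 24.6% and 24.9% of all tested genes. Dcn (19.6 to 30.5 CPM over the 6 libraries), Cd34 (26.7 to 34.7 CPM) and Lum (0 to 5 counts in a library) were scarce. Among markers of other cells, the defining genes Cdh5, Emcn, Pax7, Myod1, Sox10, Ptprc, Adgre1 and Epcam were not listed, which means under 10 counts in all 6 libraries or no place in the annotation used.

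Of the 10 genes 8 rose in senescent macrophage medium and 0 fell, against 24.6% of all tested genes called higher and 24.9% called lower. The rises ran from 1.296-fold to 1.73-fold. The median log2 fold change of the 10 genes was 0.46, beside −0.00096 over all tested genes. DESeq2 called 9 of the 10 higher (18.8% of all genes with an adjusted p), and edgeR with library totals called 8 higher (17.7%) and 1 lower (32.9%). For 9 of the 10, Lamb2 being the exception, the 3 libraries of one medium did not overlap those of the other, which held for 55.8% of all tested genes. In bulk RNA a change in the number of cells that express a gene and a change in RNA per cell cannot be told apart.

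**Figure D1:**
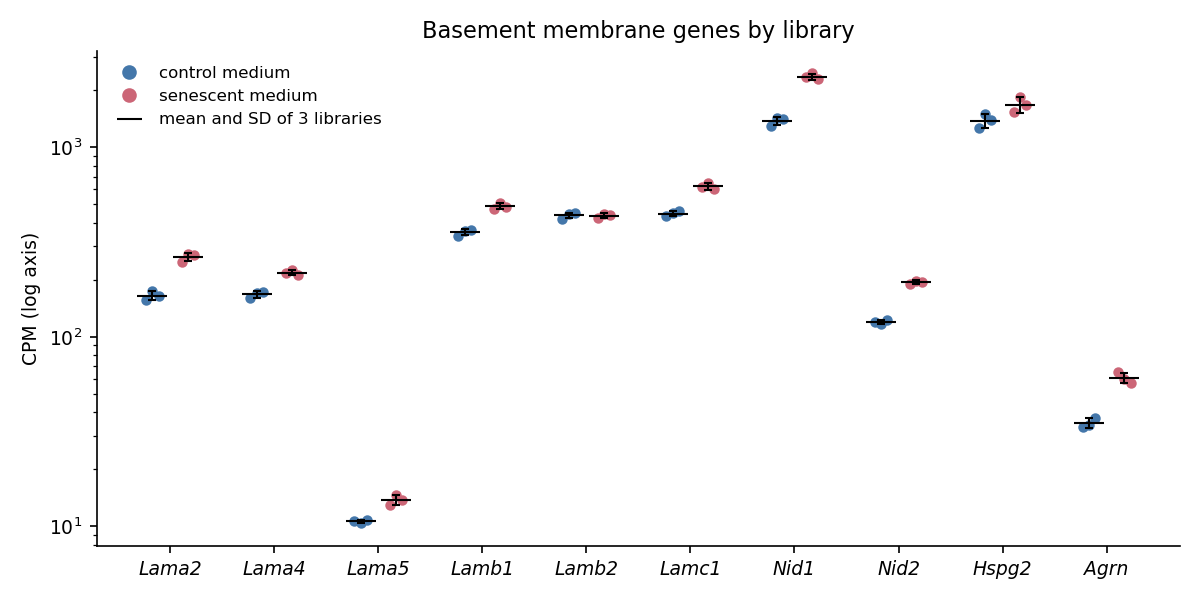
Level of each gene in every library in CPM on a log axis, with points for the 3 control-medium (blue) and 3 senescent-medium (red) libraries, and bars for their mean and SD. Red points lie above blue ones for every gene except Lamb2, whose 6 libraries sit between 420.3 and 448 CPM; for Hspg2 the gap between media is narrow.

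The alpha chains give a laminin its receptor binding and its tissue. Lama2 (ENSMUSG00000019899), the alpha-2 chain of muscle laminin, stood at 156, 173 and 165 CPM in control medium and at 248, 274 and 269 CPM in senescent medium. The lowest senescent-medium library stood 1.43 times as high as the highest control library. Its log2 fold change was 0.68 ± 0.042 (adjusted p = 9.05e-14, edgeR), the largest among the laminin chains. Lama4 (ENSMUSG00000019846), the alpha-4 chain found in vessel walls and at the nerve-muscle contact, stood at 159, 170 and 172 CPM against 216, 224 and 212 CPM. Again the media were separate, with a smaller rise of 0.38 ± 0.038 (adjusted p = 1.04e-09, edgeR). Lama5 (ENSMUSG00000015647), the alpha-5 chain typical of epithelium and mature vessels, was scarce, at 10.6, 10.4 and 10.8 CPM against 12.9, 14.6 and 13.8 CPM. Low counts made its estimate the least precise of the called genes, 0.37 ± 0.097 (adjusted p = 0.00193, edgeR).

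Because CPM favours long transcripts, levels of different genes were compared per kilobase of the union of their annotated exons, and again per kilobase of the longest transcript. Lama2 and Lama4 had like CPM in control medium, but per kilobase of union exons Lama4 was higher, at 13.8 ± 0.557 against 10.1 ± 0.522 CPM per kilobase, and Lama5 was at 0.932 ± 0.0187. Of the summed alpha chain level per kilobase, Lama2 made up 40.6% ± 0.77 in control and 45.6% ± 1.198 in senescent medium, and Lama4 55.7% ± 0.65 and 50.9% ± 1.26. With longest transcripts the Lama2 share was 37.5% ± 0.732 and 42.5% ± 1.21. Lama4 thus stayed the more abundant alpha chain transcript in both media under both lengths, by a smaller margin in senescent medium.

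The 2 beta chains differed from each other. Lamb1 (ENSMUSG00000002900), the beta-1 chain of the fibre surface and of most embryonic laminins, stood at 341, 363 and 367 CPM in control and 474, 510 and 485 CPM in senescent medium. It rose by 0.45 ± 0.036 on the log2 scale (adjusted p = 6.55e-12, edgeR). Lamb2 (ENSMUSG00000052911), the beta-2 chain concentrated at the nerve-muscle contact and in the kidney filter, stood at 420.3, 444 and 448 CPM against 423, 445 and 441 CPM. The libraries of both media overlapped almost fully, and the log2 fold change was −0.0040 ± 0.035 (adjusted p = 0.935, edgeR), with a 95% interval of −0.072 to 0.064. Scaled by library totals alone, Lamb2 was lower (−0.085, adjusted p = 0.0459, edgeR), since that scaling moves the median of all tested genes to −0.082.

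A ratio of 2 genes within a library does not depend on scaling. Per kilobase of union exons Lamb2 exceeded Lamb1 2.01, 1.99 and 1.99 times in the control libraries and 1.45, 1.42 and 1.48 times in the senescent-medium ones. This was the tightest ratio of the control libraries and one of the widest gaps between media, a log2 difference of −0.46 with SDs of 0.0092 and 0.030. With longest transcripts, Lamb1 made up 44.3% ± 0.157 of the beta pool in control and 52.2% ± 0.524 in senescent medium, so that Lamb1 passed Lamb2. With union exons it was 33.4% ± 0.141 and 40.8% ± 0.507, and Lamb2 stayed ahead. Which beta chain transcript was the more abundant thus depends on the length used, whereas length cancels out of the log2 difference between media.

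Lamc1 (ENSMUSG00000026478), the gamma-1 chain that most laminins share and to which nidogens bind, stood at 432, 449 and 460 CPM in control and 618, 646 and 599.8 CPM in senescent medium. It rose by 0.47 ± 0.035 (adjusted p = 9.86e-13, edgeR), close to the value of Lamb1. Set against the summed alpha chains per kilobase, Lamc1 stood at 2.202, 2.12 and 2.198 in control and 2.18, 2.13 and 2.06 in senescent medium. These ratios overlapped (log2 difference −0.033, exact permutation test, two-sided, p = 0.3). Against the summed beta chains it moved from 0.505, 0.495 and 0.502 to 0.636, 0.627 and 0.597 with no overlap.

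In all, 13 such ratios were compared by a two-sided exact permutation test over the 6 libraries. With 3 libraries against 3 the exact test cannot go below p = 0.1, so none could pass. The smallest value after Benjamini-Hochberg adjustment over the 13 was 0.163 (exact permutation test). In 8 of the 13 the media did not overlap. Besides the beta pair and Lamc1 over the beta chains, these were Lama4 over Lama2 (log2 difference −0.30), Lama5 over Lama2 (−0.30), summed nidogens over Lamc1 (0.29), Hspg2 over Lamc1 (−0.19), Agrn over Hspg2 (0.51) and Lama2 over Col1a1 (0.19). In contrast, Lamc1 over the collagen I gene Col1a1 (−0.013) and Col4a1, a type IV collagen chain, over Lamc1 (−0.021) overlapped between media. For single genes the media did not overlap in 55.8% of all tested genes, and no such share was worked out for ratios. Several of the 13 ratios share a gene, so the 8 are not separate results.

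**Figure D2:**
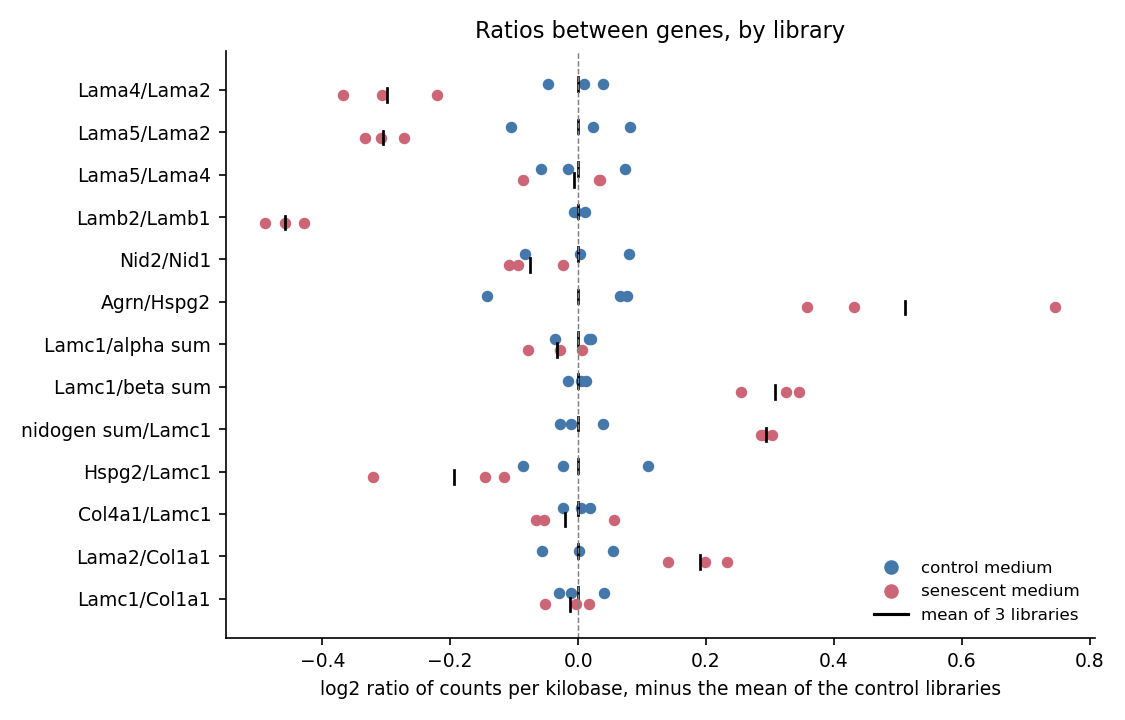
Log2 ratio of counts per kilobase of union exons for 13 gene pairs or sums in each library, minus the mean of the 3 control libraries (blue, control medium; red, senescent medium; black ticks, means). Lamb2/Lamb1 lies lowest at −0.46 and Agrn/Hspg2 highest at 0.51, while Lamc1 over alpha chains, Col4a1 over Lamc1 and Lamc1 over Col1a1 overlap at 0.

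Nidogens rose more than the laminin chain they bind. Nid1 (ENSMUSG00000005397), the main nidogen, stood at 1301, 1432 and 1409.7 CPM in control medium and at 2342, 2460 and 2290.2 CPM in senescent medium. It was the most abundant of the 10 genes in senescent medium and rose by 0.78 ± 0.037 (adjusted p = 1.04e-16, edgeR, the smallest of the 10). Nid2 (ENSMUSG00000021806), its partly redundant relative, stood at 119, 117 and 123 CPM against 190.4, 198 and 196 CPM, a rise of 0.70 ± 0.038. The media were well apart for both. Nid1 made up 89.6% ± 0.524 of the nidogen level per kilobase in control and 90.04% ± 0.284 in senescent medium, and the Nid2 to Nid1 ratios of the media overlapped. Rtraf, which overlaps 8.4% of the Nid2 exons on the opposite strand, was also higher, by a smaller 0.30 ± 0.050 (from 58.6 ± 2.22 to 72.2 ± 2.85 CPM), and its part in the Nid2 counts was not tested. Summed nidogens per kilobase stood at 4.03, 4.22 and 4.08 times Lamc1 in control and at 5.01, 5.03 and 5.07 times in senescent medium.

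The proteoglycans gave one clear and one uncertain result. Agrn (ENSMUSG00000041936), which in its neural form gathers acetylcholine receptors under the nerve ending and also binds laminin and dystroglycan, stood at 33.4, 34.4 and 37.3 CPM in control and 64.9, 59.8 and 57.2 CPM in senescent medium. Its rise of 0.79 ± 0.060 (adjusted p = 1.29e-12, edgeR) was the largest of the 10. Counts per gene do not show which splice form was made. Hspg2 (ENSMUSG00000028763), the perlecan core protein, was abundant and uneven, at 1257, 1495 and 1396 CPM in control and 1527, 1841 and 1673 CPM in senescent medium. Every senescent-medium library lay above every control library, though the closest pair differed by only 31.9 CPM. Its SD was 8.65% of the mean in control and 9.36% in senescent medium, the widest of the 10 genes in both.

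The log2 fold change of Hspg2 was 0.28 ± 0.10 and missed the threshold (adjusted p = 0.0808, edgeR). Robust estimation, the setting used here, widens the error of genes that vary more than others of their level. It passed in 6 of 17 alternatives. Among these, the same fold change without robust estimation had an SE of 0.056 (adjusted p = 3.28e-04, edgeR), and the gene also passed in DESeq2 (adjusted p = 0.0284) and without senescent-medium replicate 1 (0.0151) or 2 (0.0436, edgeR). A further pass came once trends with transcript length and GC content were removed (0.25, adjusted p = 0.00238, edgeR). It missed in limma-voom, under the other scalings and filters, and without senescent-medium replicate 3 or any one control library, the last with log2 fold changes of 0.21 to 0.34.

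**Figure D3:**
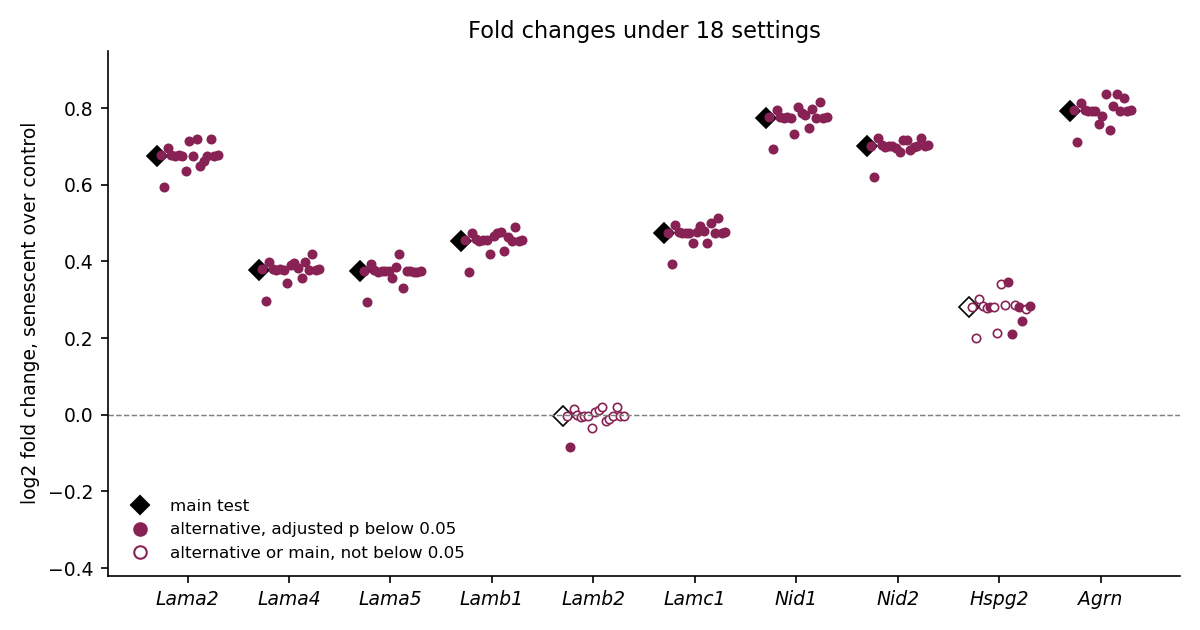
Log2 fold change of each gene under the main test (diamond) and 17 alternatives (circles), filled where the adjusted p was below 0.05. The other 8 genes are filled throughout and lie between 0.29 and 0.84, Lamb2 stays near 0 with 1 filled point at −0.085, and Hspg2 is filled in 6 of 17 alternatives.

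Per kilobase of union exons the control-medium order was Nid1 (198.9 ± 10.1 CPM per kilobase), Hspg2 (96.6 ± 8.36), Lamb2 (71.9 ± 2.45), Lamc1 (54.04 ± 1.69), Lamb1 (36.02 ± 1.45), Nid2 (23.1 ± 0.511), Lama4, Lama2, Agrn (3.77 ± 0.223) and Lama5. The libraries of neighbours in that order did not overlap. In senescent medium only Lamc1 (75.1 ± 2.83) and Lamb2 (71.7 ± 1.94) overlapped among neighbours. With longest transcripts Lamb1 and Lamc1 overlapped in both media, and Lamc1 and Lamb2 in senescent medium. Every alpha chain thus lay below Lamc1 and below both beta chains under either length.

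Among further laminin chains, Lama1 had 1.25 ± 0.176 CPM in control medium, Lama3 1 to 15 counts and Lamc3 1 to 6 counts in a library. Netrins share domains with laminins, and Ntn4, a netrin that binds laminin, rose from 38.4 ± 1.43 to 44.7 ± 2.06 CPM (0.22 ± 0.058). With library totals Ntn4 missed the threshold (adjusted p = 0.0525, edgeR).

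Collagens of the basement membrane were mostly higher. Of 6 tested, 5 were called higher and 0 lower, and the median was 0.55 on the log2 scale. The abundant type IV chains Col4a1 and Col4a2 both rose. Col4a1 went from 1201 ± 21.1 to 1646 ± 39.8 CPM (0.45 ± 0.032) and Col4a2 from 1052 ± 31.3 to 1402 ± 36.5 CPM (0.41 ± 0.033). Both lie near the values of Lamc1 and Lamb1. Among 14 other basement membrane glycoproteins 5 rose and 4 fell, counts near the background of 24.6% higher and 24.9% lower over all tested genes, against which the lists that follow are also to be read. Fbln2, a fibulin that binds laminin and nidogen, rose from 4209 ± 75.1 to 6349 ± 128 CPM (0.59 ± 0.033), and the collagen-binding protein gene Sparc from 5139.7 ± 78.3 to 7021 ± 140.1 CPM (0.45 ± 0.032).

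Receptors moved both ways. Of 17 tested receptor genes for laminin, collagen, perlecan and agrin, 9 rose and 4 fell, with a median of 0.18. The 2 smallest adjusted p-values belonged to Sspn, a partner of dystroglycan at the membrane, which rose from 47.3 ± 2.63 to 72.5 ± 1.54 CPM (0.61 ± 0.052), and to Itga1, a collagen-binding integrin that also binds laminin, which fell from 36.7 ± 2.52 to 22.2 ± 0.979 CPM (−0.72 ± 0.069). Outside the rule for named genes, and chosen after its values were seen, dystroglycan gene Dag1 rose by 0.18 ± 0.038. Of 11 tested enzymes of the sugar chains on dystroglycan, 3 rose and 5 fell. Pomgnt1 and Pomt2, with the smallest adjusted p-values of these, fell by 0.31 and 0.41 on the log2 scale, with SEs of 0.051 and 0.072.

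Heparan sulfate genes did not move as one. Of 8 tested core proteins on the cell surface 6 rose and 1 fell, led by the syndecan gene Sdc3 (0.61 ± 0.034) and the glypican gene Gpc4 (0.45 ± 0.039). Of 21 enzymes that make, sulfate or trim the chains 8 rose and 8 fell, with a median of −0.064. The smallest adjusted p-values were those of Hs6st1, a 6-O-sulfotransferase, which fell from 69.7 ± 4.64 to 47.2 ± 1.95 CPM (−0.56 ± 0.055), and of Extl3, which helps start the chain and fell from 309 ± 7.60 to 243 ± 1.89 CPM (−0.35 ± 0.034). Among 15 assembly and cross-linking genes 7 rose and 5 fell. P4ha1 and Plod2, which hydroxylate collagen chains, rose by 0.71 ± 0.034 and 0.78 ± 0.038.

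**Figure D4:**
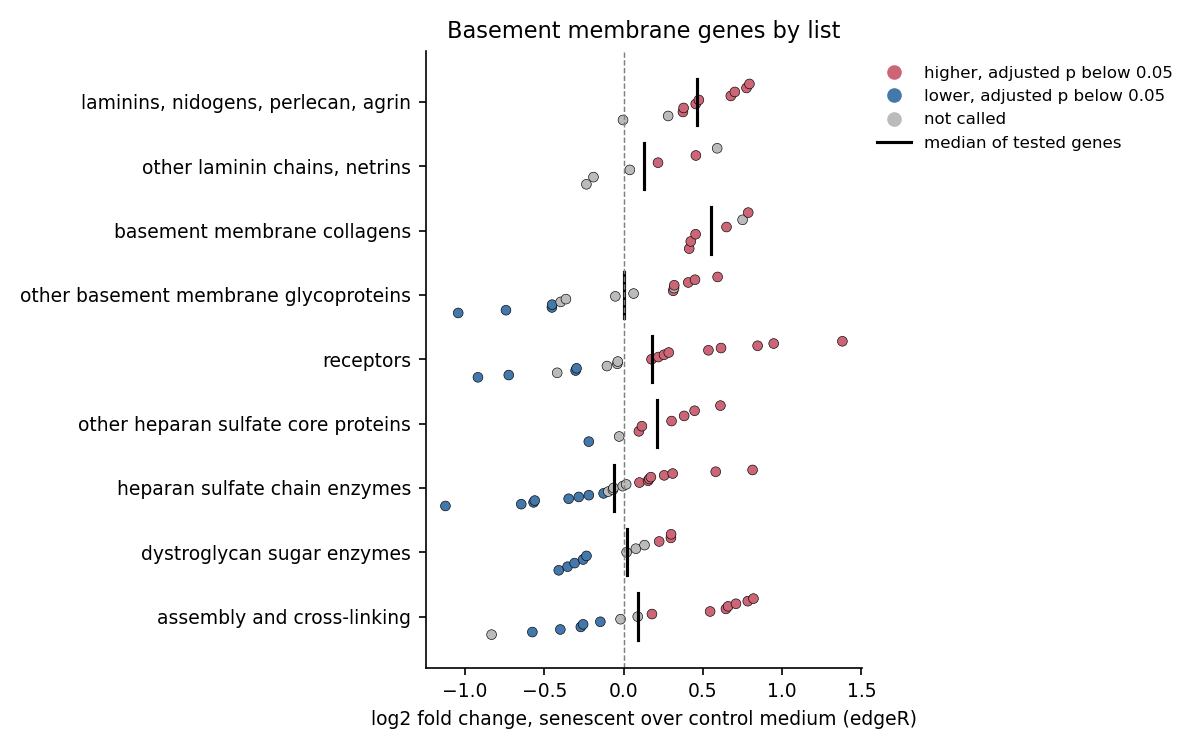
Log2 fold change of each tested gene, by list, coloured by call (red higher, blue lower, grey not called), with a black tick at each list's median. The laminins, nidogens, perlecan and agrin (median 0.46) and the basement membrane collagens (0.55) have no gene called lower, while receptors, chain enzymes and sugar enzymes lie on both sides of 0.

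Vessel, muscle, nerve and blood cells also make or carry these proteins, so their markers are given beside the counts above. The mesenchymal stromal markers of the sorted cells (8 of 8 listed) summed to between 10103 and 10178 CPM in control and between 13421 and 13969 CPM in senescent medium, most of it Col1a1 and Col1a2. Called higher were Col1a1 (0.49), Col1a2 (0.54), Thy1 (0.29), Dcn (0.47) and Cd34 (0.22), and Pdgfra was called lower (−0.29). Summed over the listed genes, endothelial markers (4 of 8 listed) stood at 24.1 to 26.5 CPM in control and 26.3 to 33.1 CPM in senescent medium, most of it Tek, and of 3 tested the receptor gene Kdr was called higher (1.25). Pericyte and smooth muscle markers (7 of 8 listed) stood at 684 to 720.2 and 582 to 605 CPM, most of it Pdgfrb, which stromal cells also express. Of the 7, Cspg4 was called higher (0.97), and Myh11 (−0.998), Mcam (−0.98) and Pdgfrb (−0.30) lower. Myogenic markers (2 of 8 listed) stood at 1.46 to 2.07 and 4.37 to 5.95 CPM, nearly all of it Des, the 1 gene tested, which was called higher (1.65). Schwann cell markers (5 of 7 listed) stood at 8.77 to 10.8 and 11.1 to 11.4 CPM. Macrophage markers (3 of 8 listed) stood at 11.4 to 14.1 and 14.7 to 19.6 CPM, with Lyz2 called higher (0.80) and Csf1r lower (−0.53). Epithelial ones (1 of 6 listed) stood at no more than 0.288 CPM in any library. The part of such cells in the results was not tested.

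By likeness over the 6 libraries, the genes closest to Lamc1 in log2 CPM were Eprs (Pearson r = 0.9986), a glutamyl-prolyl-tRNA synthetase, Elf4 (0.998), an ETS transcription factor, and Dlgap4 (0.998), a scaffold protein. As many as 1177 of 10921 genes compared had an r above 0.95. All values come from the same 6 libraries.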

How the data were processed

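Estimated counts by Ensembl gene were deposited for the 6 libraries and were taken as unnormalized. Their totals were unequal, and 70.3% to 72.8% of the values in a library lay within 0.01 of a whole number. The tools STAR and DESeq2 and the build mm39 appear without roles, per the submitters' processing notes. How reads were counted, with which annotation and strand setting, is not given in the sources used here. Paired reads of 150 bp were sequenced, per the labels' protocols. Counts were rounded to whole numbers and tested with edgeR 4.0.16 in R 4.3.3 (TMM factors, edgeR's expression filter, robust quasi-likelihood fit, medium as the only term). Each SE is the size of the log2 fold change over the root of its F statistic, and ± after CPM is the SD of 3 libraries. Ratios used scipy 1.17.1.

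Symbols and gene lengths came from GENCODE M21 (GRCm38), matched on identifiers for 18092 of 18124 genes (99.8%). Of the 31-base words in each longest member transcript, at most 8.4% (Nid2) occur in a transcript of another gene, and none in another member. The test was tried on simulated counts first.

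The 10 genes and all lists were chosen with earlier results of these data known. Named genes are the 10, the 2 genes of each of 8 pathway lists with the smallest adjusted p, genes in ratios, identity genes, and the 3 most like Lamc1 among genes of at least 5 CPM. Alternatives were DESeq2 1.42.0, limma-voom (limma 3.58.1), other scalings, filters and thresholds, the replicate block, leaving out each library, and dropping the most abundant feature. The fit without robust estimation and the removal of length and GC trends (known for 99.9% of tested genes) were added after seeing the data. Some list genes are not reported here.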

Additional observations from a re-analysis of the deposited data

How the results depend on the processing

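Agrn, Nid1, Nid2, Lama2, Lamc1, Lamb1, Lama4 and Lama5 were called higher under each of the 17 alternatives run. Over all tested genes, the number called higher ran from 2589 (library totals) to 3847 (upper quartile), each of 14644. With library totals 1 of the 10 genes, Lamb2, was called lower. A change of gene length cancels from a ratio of 2 single genes and could move only the 3 ratios with a sum: Lamc1 over summed beta chains had a log2 difference of 0.26 with longest transcripts and 0.31 with union exons, and the other two moved by less than their SD between libraries. With the replicate number as a block, 9 of the 10 genes were higher, Hspg2 being the addition (adjusted p = 3.11e-12, edgeR). Under that block 3704 of 14644 tested genes were called higher and 3698 lower. Same-numbered libraries had correlations of deviations from their group means of 0.019, 0.0020 and 0.026, which over all genes gives no sign of pairing by number. Such a check cannot exclude pairing, and the labels do not state it. Hspg2 itself was lowest in replicate 1 and highest in replicate 2 in both media. Pooled over all pathway lists, the counts (45 higher and 27 lower in the main test) stayed within 1.5 times of the main ones in every alternative. Single lists were not compared in this way. Lama5, with 189 to 286 counts in a library, is the gene whose precision is most limited by depth.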
